A study of Mus musculus with 10 samples.

Results

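In pancreas RNA from mice that differed in the insulin receptor gene Insr, 84 nuclear genes were followed. Their symbols place them among subunits of the mitochondrial respiratory chain and ATP synthase. They were chosen by gene symbol (Nduf followed by a, b, c, s or v and a number, Sdha to Sdhd, Uqcr, Cox4 to Cox8 and Atp5, without the Ndufaf assembly factors and pseudogenes) from the 24421 genes of the table, a rule that itself uses no measured value. By symbol, 37 belong to complex I, 4 to complex II, 8 to complex III, 18 to complex IV and 17 to complex V. The 17 include Atp5s (also known as Dmac2l) and Atp5sl (also known as Dmac2). Atp5sl takes part in assembly of complex I but is counted among the subunit genes throughout. Each library was made from a piece of the pancreas tail of 1 female mouse aged 12 weeks. All mice carried Ptf1aCreER, a tamoxifen-inducible Cre recombinase under the promoter of Ptf1a, a gene of the enzyme-secreting acinar cells, and the nuclear fluorescent reporter nTnG. The 3 libraries labelled Insr WT carried 0 floxed Insr alleles, the 3 labelled Insr Het carried 1 and the 4 labelled Insr KO carried 2. Cre removes the floxed sequence only in cells in which it is active, so the other cells of the piece keep the gene. The libraries are named by group and mouse number, and values per library are given throughout in the order WT-2404, WT-1860, WT-2067, then Het-2066, Het-1770, Het-2042, then KO-2079, KO-2070, KO-2124, KO-2126.

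The respiratory chain sits in the inner mitochondrial membrane. Complexes I (NADH dehydrogenase) and II (succinate dehydrogenase, also an enzyme of the citrate cycle) pass electrons to ubiquinone, complex III passes them to cytochrome c, and complex IV passes them to oxygen. The protons pumped on the way drive complex V, the ATP synthase. Acinar cells are rich in mitochondria, whose ATP feeds the synthesis and secretion of digestive enzymes. Most subunits are encoded in the nucleus, and the few encoded by mitochondrial DNA were not analysed here.

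Of the 84 subunit genes, 78 had enough counts to be tested, among 13688 genes in all. With library sizes scaled by edgeR's TMM method (trimmed mean of M values), 74 of these 78 had a higher level in KO than in WT and 75 of 78 a higher level in Het than in WT, whereas with library size alone 76 of 78 were lower in both comparisons. Their median log2 fold change against WT was 0.44 for KO and 0.55 for Het, beside 0.025 and 0.0046 over all genes tested. Scaling by library size alone moved the median of all genes to -1.17 and -1.36, with 658 and 565 of the 13688 genes above 0, and the subunit genes' medians then stood above it by 0.43 and 0.65. Of all tested genes, 51.9% had a log2 fold change above 0 against WT in KO and 50.3% in Het. The WT libraries serve in both comparisons, so the 2 results are not independent.

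None of the 78 passed edgeR's quasi-likelihood test after Benjamini-Hochberg adjustment at 0.05 in either comparison, and 0% of all tested genes did. Uqcrh, Ndufa1 and Ndufa6 shared the smallest adjusted p of 0.116 in KO against WT, and the smallest in Het against WT was 0.184. At an unadjusted p under 0.05, 34 of the 78 were higher and 0 lower in KO than in WT, against 9.61% of all tested genes higher and 13.9% lower. In Het against WT the counts were 47 higher and 0 lower, against 8.26% and 11.6% of all tested genes. Without WT-2404 they were 14 in KO and 31 in Het (9.42% and 7.87% of all tested genes in either direction), and the Het count was 31 without WT-1860 and 30 without Het-2066 (14.8% and 11%). DESeq2, run on the same counts, called 14 of 78 higher and 0 lower in KO (2.15% and 5.22% of all tested genes) and 13 of 78 higher and 0 lower in Het (1.12% and 1.8%). The 14 genes called in KO lie in all complexes but II: Ndufa1, Ndufa6, Ndufb2, Ndufb9, Ndufb10, Ndufb11, Uqcrh, Uqcr11, Cox4i1, Cox7a2, Cox7a2l, Atp5h, Atp5j and Atp5o. Groups whose ranges did not overlap are a further description: 27 of 78 genes lay higher in every KO library than in any WT library and 0 lower (6.74% and 9.15% of all tested genes), and 51 of 78 lay higher in every Het library and 0 lower (11.3% and 13.5%).

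**Figure D1:**
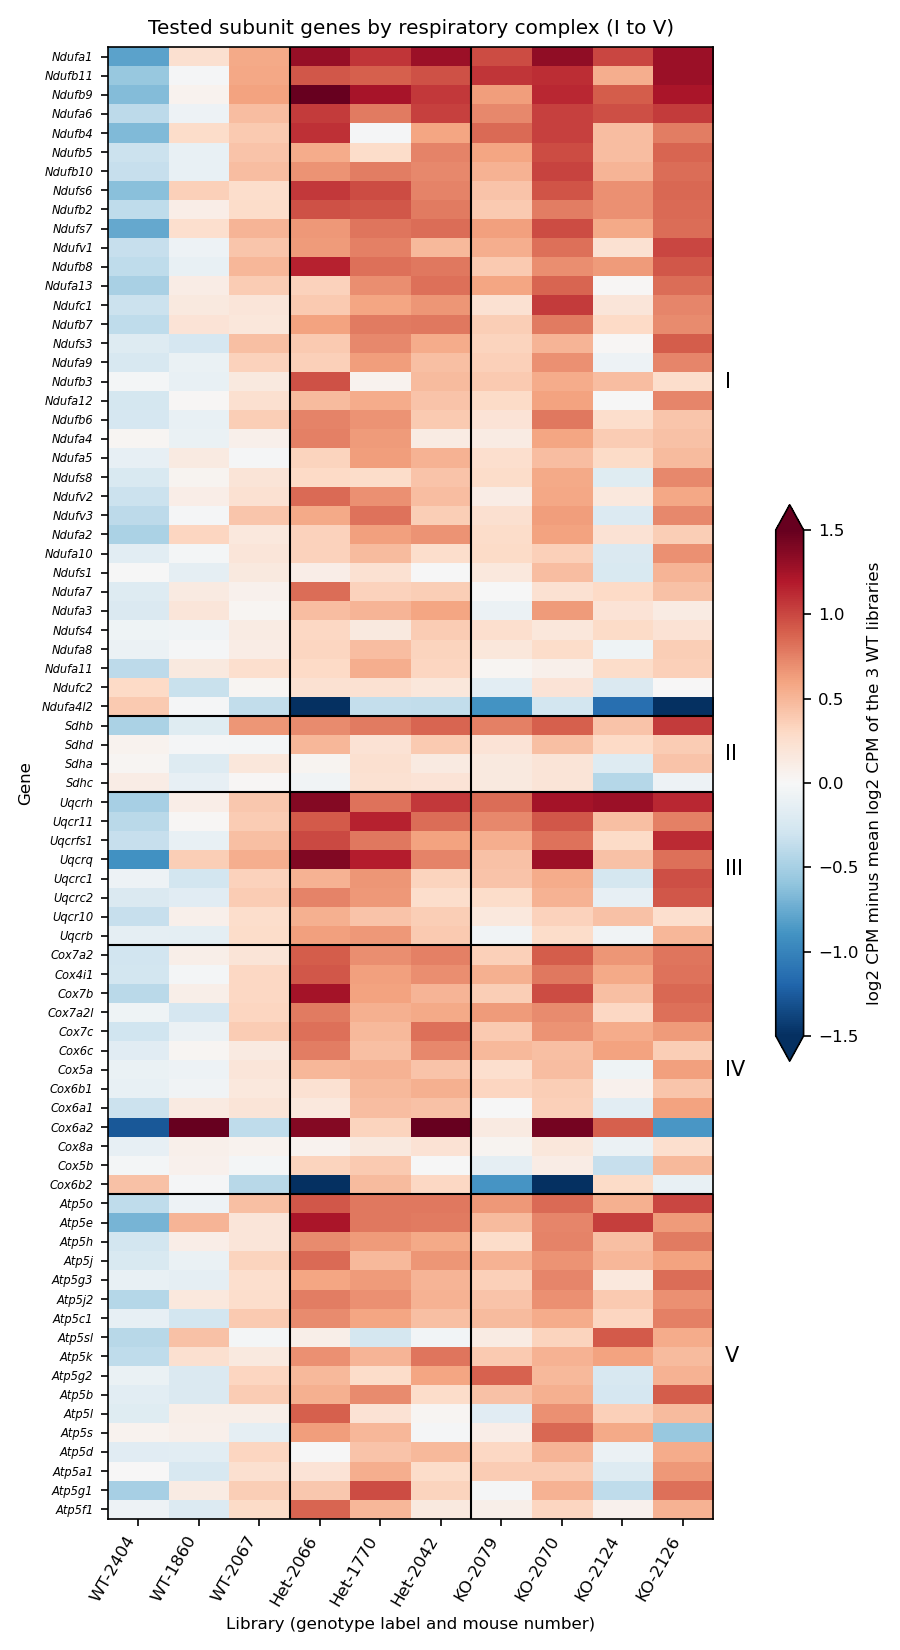
Level of the tested subunit genes (rows, without 1 gene not reported on its own, grouped by complex I to V) in each library (columns), as log2 CPM minus the mean log2 CPM of the 3 WT libraries, with TMM scaling. Red is above that mean and blue below, and the colour scale ends at 1.5 in both directions. Most rows are red in the Het and KO columns, WT-2404 is blue in most rows, and Ndufa4l2 and Cox6b2 run the other way in several libraries.

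The WT libraries were not alike, and the label of WT-2404 carries another extraction text than the other libraries. The part of that text in its values was not tested. Averaged over the subunit genes, the level in log2 CPM (counts-per-million after TMM scaling) was 4.09 for WT-2404, 4.39 for WT-1860 and 4.60 for WT-2067. It was 4.94, 4.92 and 4.88 in the Het libraries and 4.68, 4.95, 4.61 and 4.95 in the KO libraries, so the lowest KO library lay only just above the highest WT library. Without WT-2404 the median in KO against WT was 0.34 and edgeR called 0 of 78. Without WT-2067 it was 0.61, and edgeR then called 21 of 79 tested subunit genes higher in KO and 17 higher in Het, and 0 lower in either. Of all tested genes it then called 6.22% higher and 7.42% lower in KO, and 4.16% and 4.03% in Het.

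Total gene counts ranged from 11718559 to 19024351 per library. Digestive enzyme genes took 16.0% of them in WT-2404 and 59.5% to 78.5% in the other 9 libraries. Fibroblast, myeloid, ductal and lymphoid markers had a lower mean sum in Het and KO than in WT with TMM scaling. Their myeloid and lymphoid ranges overlapped between WT and KO. Summed CPM over 10 fibroblast and matrix genes was 1531 to 5497 in WT, 583 to 1203 in Het and 515 to 1373 in KO. Over 8 myeloid genes it was 328 to 1178, 177 to 255 and 95.8 to 362. Over 8 ductal genes it was 771 to 1254 in WT, 367 to 637 in Het and 376 to 627 in KO, and over 8 lymphoid genes 15.9 to 38.7, 7.86 to 8.25 and 2.43 to 21.99. Adipocyte, islet and endothelial markers had a higher mean sum in Het and KO than in WT with TMM scaling. Summed CPM over 7 adipocyte genes was 38.0 to 48.2 in WT, 70.5 to 83.5 in Het and 49.6 to 93.3 in KO, with every Het and KO library above WT. Over 8 islet genes it was 472 to 5639 in WT, 4908 to 9767 in Het and 3565 to 8421 in KO, with WT-2404 lowest and overlapping ranges. With library size alone all 7 adipocyte genes and 4 of the 8 islet genes were lower in KO than in WT. In a piece of tissue, fewer cells of a type and less RNA per cell cannot be told apart. The part of cell composition in the subunit genes' differences was not tested. With the enzyme share as a covariate the median of the subunit genes against WT was 0.23 for KO and 0.33 for Het, with 67 and 75 of 78 above 0. Of the 78, 5 and 15 had an unadjusted p under 0.05 (5.76% and 3.77% of all tested genes in either direction). The KO count was near the share of all tested genes.

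Whether the groups overlapped in their share of summed subunit counts depended on the denominator. Of all gene counts, the 84 genes took 0.683% in WT-2404 (Wilson 95% interval 0.679% to 0.687%, counting error only). They took 0.347% in WT-1860 and 0.245% in WT-2067. The Het libraries held 0.303%, 0.224% and 0.281% and the KO libraries 0.266%, 0.225%, 0.370% and 0.225%, so the groups overlapped. Of the counts outside the digestive enzyme genes, the share was 0.812%, 0.856% and 0.894% in WT, 1.09%, 0.980% and 1.04% in Het and 0.949%, 1.05%, 1.002% and 1.04% in KO. On that denominator every Het and KO library lay above every WT library.

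**Figure D2:**
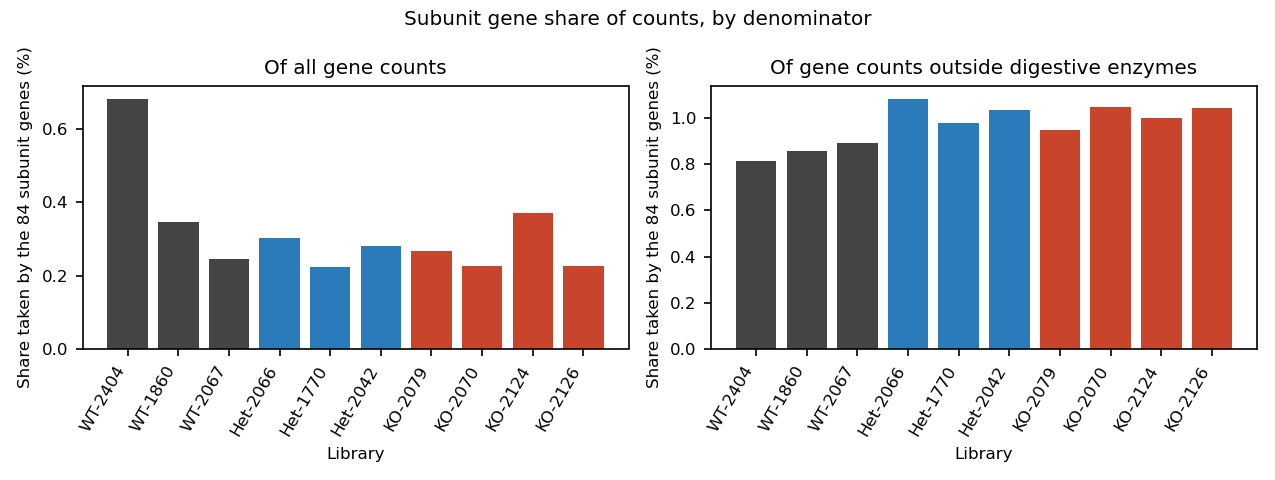
Percent of counts taken by the 84 subunit genes in each library, of all gene counts (left) and of the gene counts outside the digestive enzyme list (right), with WT bars in grey, Het in blue and KO in red. WT-2404 has the highest bar on the left, at 0.683%, and the lowest on the right, at 0.812%.

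Promoters of respiratory chain genes are known for matches to the nuclear respiratory factor NRF1 and to ETS factors such as GABP, textbook regulators of this gene class. RefSeq promoter windows of GRCm38.p6, the build of the mm10 named in the submitters' processing notes, from 250 bases before to 50 after the start, were found for 69 of the 84 genes, 65 of them tested. Both strands were searched. The NRF1 letters (GCGCA, any base, GCGC) were found in 16 of the 65 (24.6%), against 4.60% of all 32851 windows and 10.7% of the 10425 tested genes with a window. The ETS letters CCGGAAG were found in 16 of the 65 (24.6%), against 8.86% of all windows and 18.7% of tested genes. Subunit genes with an NRF1 match had a median of 0.47 on the log2 scale in KO against WT and those without had 0.44, and for ETS the medians were 0.47 and 0.45. In Het against WT they were 0.53 with and 0.55 without an NRF1 match, and 0.61 and 0.54 for ETS. These differences between genes with and without a match were not tested. The YY1 letters (AA, any base, ATGGC, any base, GC) were in 9 of the 65 (13.8%, against 1.80% of all windows and 4.01% of tested genes) and the ERR letters AAGGTCA in 7 (10.8%, against 4.72% and 3.95%). The SP letters GGGCGG were in 27 (41.5%), above the 35.7% of all windows and below the 67.5% of tested genes. The TATA letters TATAAA were in 5 (7.69%, against 13.6% and 9.37%). The 100 bases before the start are shown, 5′ to 3′ on the gene's strand, for 2 genes of each complex: those with the smallest p in KO against WT that have 1 RefSeq window and an NRF1 or ETS match in the stretch. Capitals mark these matches on either strand (CTTCCGG is ETS read on the other strand), and a match is a description of letters, not a bound site.
Ndufs6 (chr13:73328483-73328582, minus strand): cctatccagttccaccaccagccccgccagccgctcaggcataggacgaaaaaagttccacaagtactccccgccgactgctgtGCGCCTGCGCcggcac
Ndufb7 (chr8:83566658-83566757, plus strand): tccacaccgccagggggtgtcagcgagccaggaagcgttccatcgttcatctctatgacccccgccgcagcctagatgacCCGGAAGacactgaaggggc
Sdhd (chr9:50603850-50603949, minus strand): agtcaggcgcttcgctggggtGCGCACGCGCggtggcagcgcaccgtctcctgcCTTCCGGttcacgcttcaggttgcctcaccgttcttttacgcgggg
Sdha (chr13:74350241-74350340, minus strand): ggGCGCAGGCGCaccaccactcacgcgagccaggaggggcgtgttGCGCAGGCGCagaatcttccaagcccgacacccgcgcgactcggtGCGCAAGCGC
Uqcrh (chr4:116075071-116075170, minus strand): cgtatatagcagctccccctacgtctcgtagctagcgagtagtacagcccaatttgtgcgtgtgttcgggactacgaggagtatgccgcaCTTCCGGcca
Uqcr11 (chr10:80406822-80406921, minus strand): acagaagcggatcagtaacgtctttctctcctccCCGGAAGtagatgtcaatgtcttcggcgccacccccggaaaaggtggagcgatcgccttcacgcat
Cox6b1 (chr7:30626115-30626214, minus strand): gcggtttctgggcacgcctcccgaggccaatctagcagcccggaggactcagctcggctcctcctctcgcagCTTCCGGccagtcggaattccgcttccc
Cox6a1 (chr5:115348959-115349058, minus strand): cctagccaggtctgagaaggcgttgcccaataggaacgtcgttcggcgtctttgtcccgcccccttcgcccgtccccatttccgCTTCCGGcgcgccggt
Atp5h (chr11:115419920-115420019, minus strand): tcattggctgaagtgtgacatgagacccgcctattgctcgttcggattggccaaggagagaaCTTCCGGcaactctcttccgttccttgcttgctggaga
Atp5k (chr5:108434400-108434499, minus strand): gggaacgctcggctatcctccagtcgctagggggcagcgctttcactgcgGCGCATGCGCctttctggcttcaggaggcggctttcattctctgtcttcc

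Complex I was tested in 36 of its 37 genes, and with TMM scaling 34 were higher in KO than in WT. The median was 0.43, and 0.54 in Het. An unadjusted edgeR p under 0.05 was reached by 16 in KO and 24 in Het, all higher, beside 9.61% and 8.26% of all tested genes higher. Genes of the catalytic core, which carries the flavin and the iron-sulfur clusters, had values on both sides of that median in KO. Ndufs7 had a log2 fold change in KO against WT of 0.67 ± 0.26 (SE), Ndufv1 0.65 ± 0.23 and Ndufs3 0.45 ± 0.24. Ndufs8 stood at 0.37 ± 0.21, Ndufv2 at 0.36 ± 0.21 and Ndufs1, the largest core subunit, at 0.25 ± 0.19.

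Some small accessory subunits held the widest differences of complex I. Others, among them Ndufa11, Ndufa8 and Ndufa3, had log2 fold changes in KO against WT of only 0.17, 0.19 and 0.24. Ndufa1, a short membrane protein that is needed for assembly of the complex, was at 8.19, 16.96 and 21.3 CPM in WT, 35.8, 30.4 and 35.2 CPM in Het and 28.3, 36.4, 28.9 and 35.1 CPM in KO. Its highest WT library lay below all Het and KO libraries. The log2 fold change was 1.06 ± 0.27 (SE) in KO and 1.13 ± 0.29 in Het, with edgeR adjusted p-values of 0.116 and 0.184. Ndufa6, an accessory subunit of the matrix arm, was at 23.8, 29.6 and 43.3 CPM in WT, 64.6, 53.9 and 63.6 CPM in Het and 51.4, 63.6, 60.95 and 64.8 CPM in KO. Again no Het or KO library reached down to the WT range, and the log2 fold changes were 0.90 ± 0.23 and 0.92 ± 0.24 (SE), with edgeR adjusted p-values of 0.116 and 0.184. Ndufb9, an accessory subunit of the membrane arm, was at 22.7, 37.1 and 54.2 CPM in WT, 116, 84.5 and 74.8 CPM in Het and 55.4, 78.5, 67.1 and 83.5 CPM in KO. WT-2067 and KO-2079 nearly met, and the log2 fold changes were 0.91 ± 0.30 and 1.27 ± 0.32 (SE). Of Ndufb9's exon bases, 28.6% overlap another annotated gene on the same strand, so its counts are uncertain. Ndufb11, another membrane arm subunit, had log2 fold changes of 0.96 ± 0.27 and 0.86 ± 0.28.

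Ndufa4 and its paralog Ndufa4l2, both counted in complex I by symbol, had fold changes of opposite sign. Ndufa4, named for complex I and since assigned to complex IV, was at 31.4, 28.7 and 32.6 CPM in WT, 52.4, 48.01 and 33.6 CPM in Het and 33.6, 46.6, 40.3 and 41.8 CPM in KO. The log2 fold changes were 0.39 ± 0.20 and 0.53 ± 0.21 (SE), with all Het libraries and all KO libraries above the highest WT library. Ndufa4l2, a gene known to be induced by hypoxia, was at 2.57, 1.91 and 1.47 CPM in WT, 0.351, 1.49 and 1.47 CPM in Het and 0.990, 1.58, 0.830 and 0.505 CPM in KO. The groups overlapped, and its log2 fold changes of -1.06 ± 0.52 and -0.84 ± 0.55 (SE) had edgeR adjusted p-values of 0.232 and 0.388. Ndufc2, a membrane arm subunit, was the other complex I gene below 0 in KO, at 19.4, 12.5 and 16.1 CPM in WT, 18.4, 18.5 and 17.7 CPM in Het and 14.1, 18.2, 13.6 and 15.9 CPM in KO. Its ranges overlapped, with log2 fold changes of -0.062 ± 0.18 and 0.18 ± 0.20 (SE), and without WT-2404 the KO value was 0.098. Ndufs5 had 0 counts in all 10 libraries. At 3 counts this allows a level of up to 0.158 to 0.256 CPM before scaling, if its reads were counted like those of other genes. Of the words of 50 bases in its transcript, 21.7% occur in 1 other gene. Why it had no counts was not tested, and its level is uncertain.

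**Figure D3:**
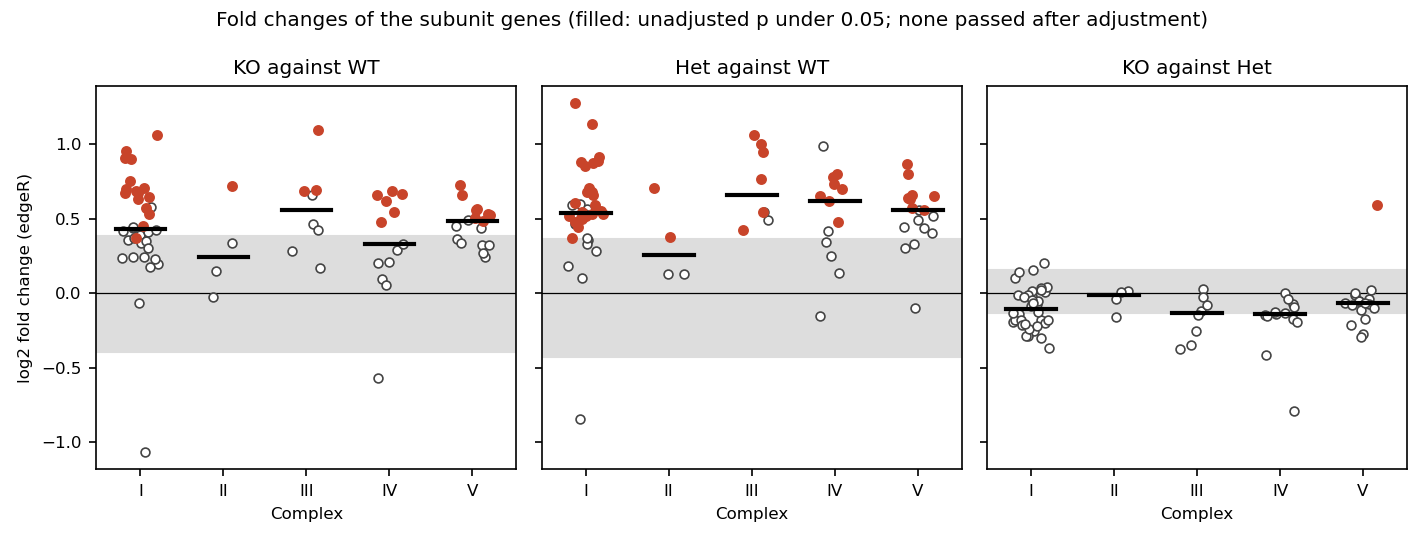
Log2 fold change (edgeR, TMM scaling) of each tested subunit gene by complex in KO against WT, Het against WT and KO against Het. Filled points have an unadjusted p under 0.05, bars are the median of each complex and the grey band spans the middle 50% of all tested genes. Medians run from 0.24 (complex II) to 0.56 (complex III) in KO against WT and lie between -0.14 and -0.014 in KO against Het.

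Complex II had the lowest median, 0.24 in KO and 0.25 in Het, and the ranges of Sdhd alone were separate from WT in both comparisons. Sdha, the flavoprotein that oxidises succinate, was at 53.02, 45.4 and 58.2 CPM in WT, 53.3, 61.3 and 57.1 CPM in Het and 57.5, 59.3, 45.3 and 69.95 CPM in KO. These ranges overlapped, with log2 fold changes of 0.15 ± 0.20 and 0.13 ± 0.21 (SE). Sdhb, the iron-sulfur subunit, was at 19.03, 23.3 and 41.98 CPM in WT, 43.5, 45.4 and 48.6 CPM in Het and 44.7, 49.4, 35.8 and 54.99 CPM in KO. WT-2404 and WT-1860 were low, while WT-2067 lay above KO-2124, and the log2 fold changes were 0.72 ± 0.26 and 0.71 ± 0.28 (SE), with edgeR adjusted p-values of 0.143 and 0.205. The membrane anchor Sdhd was at 26.9, 25.5 and 25.3 CPM in WT, 36.8, 30.2 and 34.01 CPM in Het and 29.99, 35.4, 32.00 and 33.8 CPM in KO. All Het and KO libraries lay above all WT libraries, with log2 fold changes of 0.34 ± 0.16 and 0.38 ± 0.17 (SE). The edgeR adjusted p-values were 0.213 and 0.236. Exact permutation p-values (two-sided) were 0.0286 in KO and 0.1 in Het, the smallest these group sizes can give. Of all tested genes, 6.74% likewise lay higher in every KO library than in any WT library. The other anchor, Sdhc, was at 28.5, 24.2 and 26.7 CPM in WT, 25.4, 30.9 and 30.4 CPM in Het and 29.3, 30.2, 19.6 and 24.97 CPM in KO. The ranges of all groups overlapped, and the log2 fold changes were -0.028 ± 0.18 and 0.13 ± 0.20 (SE). As a share of all subunit counts, complex II made up 5.32% to 6.60% in WT, 4.36% to 5.19% in Het and 4.86% to 5.40% in KO.

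Complex III had the highest median, 0.56 in KO and 0.66 in Het, and with TMM scaling all 8 genes were higher in both comparisons. Uqcrh, the acidic hinge protein at the cytochrome c docking face, had the largest log2 fold change of the 78 genes in KO against WT. It was at 38.3, 58.3 and 71.7 CPM in WT, 142, 95.9 and 114 CPM in Het and 97.3, 129.7, 132 and 119 CPM in KO. The highest WT library lay below every Het and KO library, and the log2 fold changes were 1.09 ± 0.26 and 1.06 ± 0.28 (SE), with edgeR adjusted p-values of 0.116 and 0.184 and an exact permutation p of 0.0286 in KO. Per kilobase of transcript it was also the most abundant tested subunit gene, at 210.4 CPM per kb over all libraries. Of its 50-base words, 7.14% occur in 1 other gene. Uqcr11, the smallest subunit, was at 15.6, 20.9 and 26.96 CPM in WT, 39.2, 46.1 and 36.96 CPM in Het and 34.1, 39.5, 28.2 and 34.9 CPM in KO. The groups did not overlap with WT, although KO-2124 came close to WT-2067, and the log2 fold changes were 0.69 ± 0.21 and 0.95 ± 0.22 (SE). Uqcrq, a subunit bound to cytochrome b, was at 22.2, 54.1 and 60.97 CPM in WT, 110.1, 94.8 and 69.99 CPM in Het and 56.6, 101, 56.9 and 74.00 CPM in KO. WT-2404 was far below the rest, KO-2079 and KO-2124 lay within the WT range, and the log2 fold changes were 0.66 ± 0.34 and 1.004 ± 0.37 (SE). The Rieske iron-sulfur protein gene Uqcrfs1 had 0.69 ± 0.25 in KO and 0.77 ± 0.26 in Het. The core proteins Uqcrc1 and Uqcrc2 had 0.46 ± 0.27 and 0.43 ± 0.26 in KO, and Uqcr10 and Uqcrb, both small subunits, had 0.28 ± 0.18 and 0.17 ± 0.19.

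**Figure D4:**
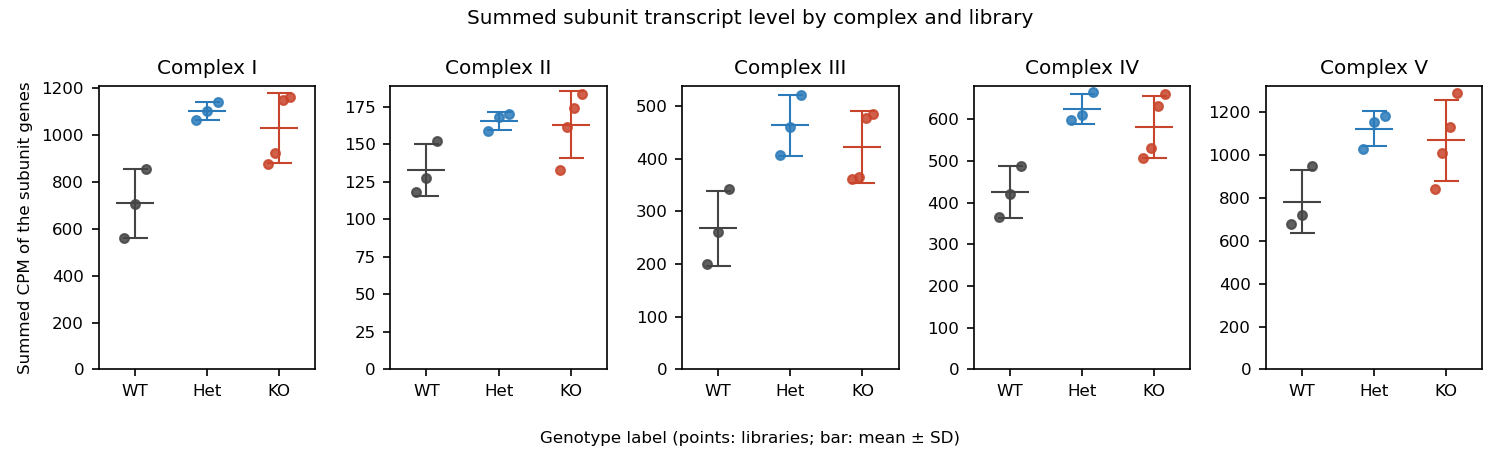
Summed CPM (TMM-scaled) of the subunit genes of each complex, 1 point per library with the group mean ± SD, for WT (grey), Het (blue) and KO (red). In complex III the WT libraries sit between 199.5 and 342 and the Het libraries between 406 and 521, and in complex II the KO library at 133 lies within the WT range.

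Complex IV was tested in 13 of 18 genes, with TMM-scaled medians of 0.33 in KO and 0.62 in Het, and 12 of 13 higher in each. Several of its subunits come in a usual form and a tissue-restricted form. Cox4i1, the usual form of the regulatory subunit 4 and the most abundant complex IV gene at 166 CPM per kb, was at 71.1, 84.01 and 106 CPM in WT, 164, 132 and 139.9 CPM in Het and 124, 149, 128 and 152 CPM in KO. The highest WT library lay below all others, and the log2 fold changes were 0.66 ± 0.23 and 0.73 ± 0.24 (SE), with edgeR adjusted p-values of 0.129 and 0.184. Of its exon bases, 20.1% overlap Emc8 on the other strand. Its counterpart Cox4i2, known from lung and from low oxygen, had 79 counts over the 10 libraries and was not tested, at 0.334 to 0.711 CPM in WT, 0.0932 to 0.430 in Het and 0.309 to 0.659 in KO.

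Cox7a2, the usual form of subunit 7A, was at 17.8, 23.1 and 24.8 CPM in WT, 40.8, 35.1 and 36.5 CPM in Het and 27.7, 40.7, 34.3 and 37.9 CPM in KO. All Het and KO libraries lay above the WT range, with log2 fold changes of 0.69 ± 0.19 and 0.78 ± 0.20 (SE) and edgeR adjusted p-values of 0.116 and 0.184. The heart and muscle form Cox7a1 had 23 counts in all. Cox7a2l, a relative that joins complexes III and IV in supercomplexes, was at 44.1, 38.8 and 57.6 CPM in WT, 79.7, 67.1 and 68.8 CPM in Het and 72.05, 75.8, 57.5 and 82.1 CPM in KO. Only KO-2124 fell within the WT range, just below WT-2067, and the log2 fold changes were 0.62 ± 0.21 and 0.62 ± 0.23 (SE). Cox7b, a small structural subunit, was at 26.7, 37.7 and 44.1 CPM in WT, 84.4, 53.97 and 50.5 CPM in Het and 45.8, 69.8, 48.3 and 64.6 CPM in KO. Het-2066 was the highest library, and the log2 fold changes were 0.66 ± 0.26 and 0.80 ± 0.28 (SE). The testis form Cox7b2 had 3 counts in all.

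The usual forms of subunits 6A, 6B and 8 differed less. Cox6a1 was at 41.1, 56.3 and 58.7 CPM in WT, 57.6, 71.03 and 69.6 CPM in Het and 51.02, 65.6, 46.1 and 78.2 CPM in KO, with overlapping ranges and log2 fold changes of 0.21 ± 0.23 and 0.35 ± 0.25 (SE). Cox6b1 was at 38.5, 40.1 and 46.6 CPM in WT, 48.8, 58.4 and 60.4 CPM in Het and 51.95, 53.5, 43.3 and 55.7 CPM in KO, with only KO-2124 inside the WT range and log2 fold changes of 0.29 ± 0.18 and 0.42 ± 0.20 (SE). Cox8a was at 33.9, 38.9 and 38.4 CPM in WT, 38.3, 41.1 and 42.9 CPM in Het and 38.2, 41.8, 34.9 and 43.97 CPM in KO. Its 10 libraries overlapped almost fully, with log2 fold changes of 0.098 ± 0.17 and 0.14 ± 0.18 (SE). After a trend of level with transcript length was taken off, an alternative added after seeing the data, the KO values were -0.070 for Cox6a1, -0.038 for Cox6b1 and -0.20 for Cox8a.

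The heart and muscle form Cox6a2 was at 0.0501, 1.09 and 0.184 CPM in WT, 0.877, 0.373 and 1.17 CPM in Het and 0.309, 0.922, 0.599 and 0.101 CPM in KO. The ranges of all groups overlapped, on 85 counts in all, and its log2 fold change of 0.20 ± 0.95 (SE) turned to -0.43 without WT-2404, -0.12 without WT-2067 and -0.17 without KO-2070. The testis form Cox6b2 was at 1.09, 0.766 and 0.551 CPM in WT, 0.0877, 1.12 and 0.982 CPM in Het and 0.371, 0, 0.968 and 0.708 CPM in KO. No group stood apart, with a log2 fold change of -0.57 ± 0.79 (SE) in KO and -0.15 ± 0.84 in Het. Cox8b, the form of heart muscle and brown fat, had 14 counts and the testis form Cox8c had 0. Of 8 markers of skeletal and heart muscle only Ckm was tested, with Myh4 at 0 counts in all libraries, and of 3 brown fat markers only Cidea was tested, with Elovl3 at 0. Among the structural subunits without such forms, Cox6c had 0.48 ± 0.17 in KO, Cox7c 0.55 ± 0.19, Cox5a 0.33 ± 0.19 and Cox5b 0.058 ± 0.21.

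Complex V, the ATP synthase, had TMM-scaled medians of 0.48 in KO and 0.56 in Het, with 17 of 17 and 16 of 17 genes higher. The gene lower in Het was Atp5sl (-0.10), which takes part in assembly of complex I. Atp5b, the catalytic beta subunit and the subunit gene with the highest CPM, was at 172, 166 and 250.1 CPM in WT, 278, 314 and 234 CPM in Het and 261, 279, 162 and 361 CPM in KO. Its highest and its lowest library were both KO, and the log2 fold changes were 0.44 ± 0.31 and 0.49 ± 0.32 (SE). Atp5a1, the alpha subunit that alternates with beta in the catalytic ring, was at 149, 125 and 176 CPM in WT, 171, 216 and 179 CPM in Het and 193, 194, 129.6 and 234 CPM in KO. KO-2124 lay below WT-2404 and WT-2067, and the log2 fold changes were 0.32 ± 0.26 and 0.33 ± 0.28 (SE).

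The peripheral stalk, which holds the catalytic head still, held the 3 smallest p-values of complex V in KO against WT. Atp5o, the oligomycin sensitivity protein on top of the stalk, was at 28.3, 35.1 and 50.4 CPM in WT, 70.1, 63.9 and 64.1 CPM in Het and 57.8, 66.7, 53.2 and 73.8 CPM in KO. WT-2067 lay just below the lowest KO library, and the log2 fold changes were 0.73 ± 0.23 and 0.80 ± 0.24 (SE), with edgeR adjusted p-values of 0.122 and 0.184. Other genes overlap its exons on both strands, and 28.2% of its 50-base words recur elsewhere. Atp5j, coupling factor 6 of the stalk, was at 28.5, 31.2 and 42.5 CPM in WT, 60.6, 47.3 and 53.4 CPM in Het and 48.4, 53.5, 47.6 and 50.95 CPM in KO. The ranges did not overlap with WT, and the log2 fold changes were 0.56 ± 0.19 and 0.66 ± 0.21 (SE). The stalk subunits Atp5h and Atp5f1 had 0.57 ± 0.20 and 0.24 ± 0.23 in KO. In the rotor, the gamma, delta and epsilon subunits Atp5c1, Atp5d and Atp5e had 0.51 ± 0.22, 0.33 ± 0.23 and 0.66 ± 0.28. The 3 genes for the identical c subunit of the rotor ring had 0.27 ± 0.30 (Atp5g1), 0.45 ± 0.25 (Atp5g2) and 0.53 ± 0.22 (Atp5g3). Atp5k, Atp5l and Atp5j2, small membrane subunits, had 0.48 ± 0.18, 0.36 ± 0.28 and 0.52 ± 0.21. Of Atp5l's 50-base words, 68.5% recur in other genes, so its counts are uncertain. Atp5s, at 1.56 ± 0.128 CPM in WT (SD, n = 3), had 0.34 ± 0.39.

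Atpif1, the inhibitor that blocks ATP hydrolysis by complex V, is outside the symbol rule and was lower where most subunits were higher. It was at 39.1, 24.2 and 28.2 CPM in WT, 26.9, 28.4 and 27.8 CPM in Het and 24.2, 17.8, 27.2 and 21.3 CPM in KO. The ranges overlapped between all groups, and the log2 fold changes were -0.43 ± 0.20 and -0.14 ± 0.22 (SE), with edgeR adjusted p-values of 0.218 and 0.723.

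KO and Het were compared directly. With TMM scaling 63 of the 78 subunit genes were lower in KO than in Het, with a median log2 fold change of -0.098 beside 0.0079 over all genes (51.5% of all tested genes above 0), whereas with library size alone 44 of 78 were higher. All 13 tested complex IV genes were among the 63, with a median of -0.14, and with library size alone 8 of the 13 were lower. No gene of the table passed edgeR's adjusted test (0% called), and DESeq2 called 0. Of the 78 genes, 1 had an unadjusted edgeR p under 0.05, against 0.402% of all tested genes higher and 0.351% lower. That gene was Atp5sl, which is also known as Dmac2 and takes part in assembly of the membrane arm of complex I. It was at 5.30, 9.68 and 6.92 CPM in WT, 7.55, 5.87 and 6.88 CPM in Het and 7.73, 8.96, 13.5 and 10.5 CPM in KO, and was also the only one of the 78 with separate KO and Het ranges (1.3% of all tested genes higher and 1.16% lower in that way). Its log2 fold change was 0.59 ± 0.26 (SE) in KO against Het, with an edgeR adjusted p of 1.0, and 0.49 ± 0.25 and -0.10 ± 0.27 against WT.

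With Het and KO averaged against WT, 76 of 78 genes were higher with TMM scaling and 75 of 78 lower with library size alone. The TMM-scaled median was 0.49, beside 0.016 over all genes and 51.2% of them above 0. edgeR called 0 of the 78 and 0% of all tested genes, with a smallest adjusted p of 0.0597 over all genes. DESeq2 called 29 of 78 higher and 0 lower, against 4.19% and 8.62% of all tested genes. An unadjusted edgeR p under 0.05 was reached by 47 of 78, all higher (11.7% of all tested genes higher and 16.5% lower), and by 28 without WT-2404 (11.6% of all tested genes in either direction). In 24 of 78 every Het and KO library lay above every WT library and in 0 below (3.99% and 5.84% of all tested genes). Without WT-2067 edgeR called 32 subunit genes higher and 0 lower, against 8.82% and 11.1% of all tested genes. Without KO-2124 it called 7 subunit genes, against 0.722% of all tested genes higher and 2.92% lower.

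Transcript length moved with the differences, since short genes were higher in Het and KO across the table and 51 of the 78 subunit transcripts are under 1000 bases. The median log2 fold change in KO against WT of all 1111 tested genes under 1000 bases was 0.25, and it was 0.088 at 1000 to 2000 bases and 0.0016 at 2000 to 4000. The subunit genes under 1000 bases had a median of 0.45 and the 27 of 1000 bases or more had 0.44. With the length trend of each library taken off, the median of the 78 genes was 0.30 in KO with 63 above 0, and 0.36 in Het with 70 above 0. In that setting 17 and 14 of the 78 had an unadjusted p under 0.05. These were no larger shares than among all tested genes (23% and 18.6% in either direction). Sequence shared with other genes was checked in the same way. The 57 subunit genes that share under 5% of their 50-base words with another gene had a median of 0.43 and the other 21 had 0.48. The 48 genes that also have at most 10% of their exon bases in another gene had 0.41. Shares of such words were highest in Atp5l (68.5%), Uqcrb (43.2%), Atp5g2 (38.35%), Ndufb4 (37.0%), Atp5h (36.9%) and Ndufs3 (35.8%). Of Cox5a's exon bases, 41.7% overlap another gene on the other strand. Counts of these genes are uncertain.

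**Figure D5:**
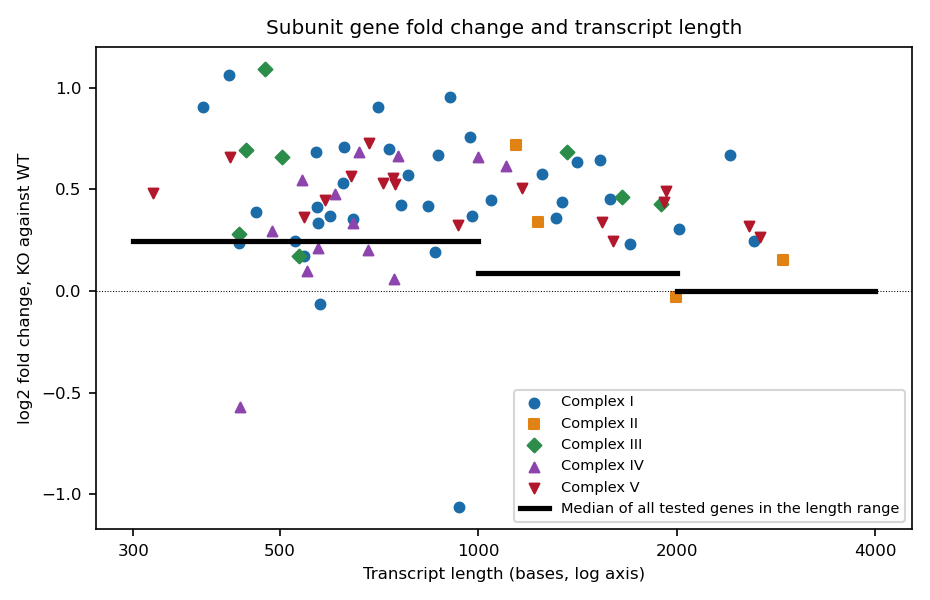
Log2 fold change in KO against WT (TMM scaling) of the 78 tested subunit genes against transcript length in bases on a log axis, coloured by complex, with the median of all tested genes in 3 length ranges as black bars. The black bars step down from 0.25 to 0.0016, and most points lie above the bar of their range on both sides of 1000 bases.

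Other genes of the pathway were counted from lists, none of whose genes passed edgeR's adjusted test. Of 6 further subunits and electron carriers (Ndufab1, Cyc1, Cycs and the electron transfer flavoproteins), all 6 were higher in KO, with a median of 0.62. Etfb had 0.69 ± 0.22, Etfdh 0.82 ± 0.30 and Etfa 0.82 ± 0.30 (SE). Of 48 tested assembly factors for the 5 complexes, 38 were higher and 10 lower in KO, with a median of 0.30, and 43 were higher in Het. Cox16 and Cox11, factors of complex IV, had 0.91 ± 0.29 and 0.67 ± 0.24, Ecsit, a factor of complex I, had 0.76 ± 0.29, Sdhaf1 of complex II had 0.70 ± 0.24, and Coa5 of complex IV had -0.36 ± 0.19. Among 16 genes of the citrate cycle and pyruvate dehydrogenase, 14 were higher and 2 lower, with a median of 0.22. Suclg1, of succinyl-CoA ligase, had 0.80 ± 0.30, while citrate synthase, Cs, had -0.051 ± 0.20 and malate dehydrogenase, Mdh2, -0.023 ± 0.20.

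Regulators of mitochondrial gene expression were mostly above 0 too, with 12 of 13 higher in KO and a median of 0.34. Tfb1m, which modifies mitochondrial ribosomal RNA, had 1.17 ± 0.34, Tfam, which packages mitochondrial DNA, had 0.44 ± 0.20, and the coactivator Ppargc1a had 0.67 ± 0.35 (SE). Among 24 import, carrier and membrane genes, 21 were higher and 3 lower, with a median of 0.27. Timm44, of the import motor, had 0.65 ± 0.18, and the adenine nucleotide carrier Slc25a4 had -0.55 ± 0.24. In all of these lists the direction is that of TMM scaling. With library size alone the medians were -0.51 for the carriers, -0.88 for the assembly factors, -1.01 for the citrate cycle, -0.78 for the regulators and -0.92 for the import genes, each still above the median of all genes by 0.65, 0.29, 0.16, 0.39 and 0.25. The 13 subunit genes of mitochondrial DNA (mt-Nd1, mt-Nd2, mt-Nd3, mt-Nd4, mt-Nd4l, mt-Nd5, mt-Nd6, mt-Cytb, mt-Co1, mt-Co2, mt-Co3, mt-Atp6 and mt-Atp8) were not analysed here.

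Ribosomal protein genes, many of them also short and abundant, were set beside the subunit genes. With TMM scaling 78 of 80 cytosolic ribosomal protein genes were higher in KO than in WT, and with library size alone 54 of 80 were lower. Their TMM-scaled median was 0.87, and 65 of 80 lay above the WT range in every KO library, against 6.74% of all tested genes. Of 77 mitochondrial ribosomal protein genes, 67 were higher with TMM scaling, with a median of 0.40, and 76 of 77 were lower with library size alone. In 15 of the 77 every KO library lay above the WT range, against the same 6.74%. The subunit genes, with a median of 0.44 and 27 of 78 with separate ranges, lay between both families on each of these measures. In Het against WT the medians were 0.87 for the cytosolic ribosomal proteins, 0.42 for the mitochondrial ones and 0.55 for the subunit genes. The differences between these families were not tested.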

How the data were processed

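Poly(A) RNA of pancreas tail pieces was sequenced by the authors with a stranded mRNA kit, per the labels' protocols, and 1 table of raw counts per gene and mouse was deposited by the authors. The submitters' processing notes name DRAGEN, STAR, Cufflinks and mm10, without their roles, and use of strand in counting is not given in the sources used here. A label counts 1 more WT mouse, which was not analysed here, and the label of WT-2404 carries another extraction text than the other 9. A further part of the genotype, shared by all groups, and the values of 1 subunit gene are not reported here. That gene enters the counts and medians.

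All 10 columns were matched to mice by name, with 0 left over. Rows that name no gene stayed out; they hold reads outside genes (2.60% to 8.71% per library) and reads of ambiguous origin (0.101% to 0.584%). Genes were filtered with filterByExpr (minimum count 10) and tested with edgeR 4.0.16 in R 4.3.3 (TMM factors, robust quasi-likelihood, two-sided, all 10 libraries in 1 fit without covariates), with adjustment over all 13688 tested genes and a threshold of 0.05. DESeq2 1.42.0 was an alternative. Log2 CPM used a prior count of 2. Values of single genes were also compared by exact permutation over mice, whose smallest p is 0.0286 for 3 against 4 and 0.1 for 3 against 3. The fit was tested on simulated counts with the same spread for every gene and differences of 1 or 2 log2 units. Those are wider than the subunit genes' medians, so the simulation does not cover differences of that size. The edgeR p-values set the difference between groups against the spread between mice within groups, estimated over all 10 libraries. The subunit genes, gene lists and rules were chosen with earlier results of these data known. Named in full were, per complex, the 2 genes with the highest mean CPM, the 2 with the smallest p in KO against WT, up to 3 with the opposite sign, and the tissue-restricted forms with their usual counterparts. In the other lists, examples came from up to 3 genes in each direction with the smallest p. Transcript length is the median over protein-coding transcripts of the annotation. Other settings tried were RLE factors, library size alone, the digestive enzyme genes left out, a minimum of 1 count, the compared groups alone, the enzyme share as a covariate, each library left out in turn and, added after seeing the data, a length trend taken off.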

Additional observations from a re-analysis of the deposited data

How the results depend on the processing

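No paired analysis was possible, because each mouse is in 1 group and the labels give no litter, batch or date to pair or group mice by. Of 61 values of the subunit genes' medians under other settings, 53 kept their direction and moved by less than the spread between mice, and of 403 values of single genes, 346 kept direction and side of the threshold and 23 passed the threshold in the same direction. Library size alone reversed the medians to -0.74 in KO, -0.71 in Het and -0.71 in Het and KO against WT, and to 0.020 in KO against Het. In the first 3 it came with 2841, 3140 and 7121 genes called, since it moves the median of all genes below 0. It reversed, in KO against WT, Atp5a1 (-0.94), Atp5b (-0.78), Atp5j (-0.54), Atp5o (-0.34), Cox4i1 (-0.44), Cox6a1 (-0.95), Cox6a2 (-0.61), Cox6b1 (-0.89), Cox7a2 (-0.43), Cox7a2l (-0.58), Cox7b (-0.44), Cox8a (-1.09), Ndufa4 (-0.82), Ndufa6 (-0.12), Ndufb9 (-0.047), Sdha (-1.11), Sdhb (-0.30), Sdhd (-0.90), Uqcr11 (-0.38) and Uqcrq (-0.29). The enzyme share as a covariate moved the medians to 0.23, 0.33 and 0.26 and reversed Cox6a1 (-0.080), Cox6a2 (-0.56), Cox8a (-0.017) and Ndufc2 (0.065). The length trend taken off, added after seeing the data, moved the Het median to 0.36 and reversed Cox6a1 (-0.070), Cox6a2 (-0.025), Cox6b1 (-0.038) and Cox8a (-0.20). The cause of these moves was not tested. DESeq2 called 1009 genes in KO, 400 in Het and 1753 in Het and KO against WT, and a minimum of 1 count gave 8 in the last. With libraries left out in turn, edgeR called 0 to 1932, 0 to 1160 and 0 to 2829 genes, the highest each without WT-2067, and without KO-2124 and KO-2079 it called 490 and 50 in Het and KO against WT. The medians ranged from 0.34 to 0.61 in KO, from 0.44 to 0.71 in Het, from 0.38 to 0.65 in both together and from -0.16 to -0.057 in KO against Het. Single genes that changed sign were Cox6a2 (-0.43 without WT-2404, -0.12 without WT-2067 and -0.17 without KO-2070, in a range from -0.43 to 2.23), Ndufc2 (0.098 without WT-2404, range -0.21 to 0.098) and Sdhc (0.026 without WT-2404 and 0.074 without KO-2124, range -0.11 to 0.074). Cox7a1, Cox7b2, Cox8b and Cox4i2 had too few counts to test, and Cox8c and Ndufs5 had 0 counts.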
